A study of Mus musculus with 22 samples.

Results

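The genes of the mouse major histocompatibility complex (MHC, named H2 in the mouse) and of antigen processing were followed in bladders of mice given BBN, a nitrosamine that causes bladder cancer, and in normal bladders. Members were all genes whose symbol begins with H2-, together with B2m, Tap1, Tap2, Tapbp, Psmb8, Psmb9, Psmb10, Nlrc5, Ciita, Cd74, Cd1d1 and Erap1, found on the array through the RefSeq accession of each probe. The rule found 50 such genes among the 22911 genes with a probe, and for 40 of them some probe exceeded background clearly on 2 or more of 22 arrays. The brightest probe stood for a gene, and 39 of the 17405 genes tested were members. H2-M10.1 passed the rule only through its dimmer probe and has no value here. H2-M1, H2-M10.2, H2-M10.3, H2-M10.4, H2-M10.5, H2-M10.6, H2-M5, H2-M9, H2-Eb2 and H2-DMb2 were below background on all arrays, or above it on 1 at most.

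The study measured total RNA of bladder with 1-colour Agilent arrays, 1 array per sample, in mice aged 8 months. Of the 8 groups, 7 had BBN in the drinking water for 24 weeks, from the age of 2 months. The Krt5-Cre group (2 arrays, Krt5-CreERT2; LSL-RFP) and the Upk2-Cre group (2 arrays, Upk2-CreERT2; LSL-RFP) received tamoxifen and carried no Trp53 mutation by their labels. The Krt5 R270H group (3 arrays) and the Krt5 R172H group (4 arrays) carried Krt5-CreERT2, LSL-RFP and 1 mutant Trp53 allele, and received tamoxifen. The Upk2 R270H group (2 arrays) and the Upk2 R172H group (3 arrays) carried the same alleles with Upk2-CreERT2, and received tamoxifen. The Trp53 het group (3 arrays) is labelled Trp53R270H/+ with no Cre and no tamoxifen, and is titled as heterozygous for Trp53. The normal group (3 arrays) was wild type, with neither tamoxifen nor BBN. CreERT2 acts only after tamoxifen, in Krt5-expressing basal cells or in Upk2-expressing urothelial cells, whereas the RNA came from whole bladders that also hold cells without Cre.

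MHC class I molecules show peptides from inside the cell to CD8 T cells. Proteasomes, including immunoproteasomes with the subunits Psmb8, Psmb9 and Psmb10, make the peptides, the transporter Tap1 and Tap2 moves them into the endoplasmic reticulum, and Tapbp (tapasin) helps to load them on a heavy chain paired with B2m. Class II molecules show peptides from endosomes to CD4 T cells and are found mainly on dendritic cells, macrophages and B cells, although interferon gamma can induce them elsewhere. Nlrc5 drives class I genes and Ciita drives class II genes, both through factors bound at the S, X and Y boxes of these promoters.

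The arrays limit what can be read from these genes. Between 42.4% and 63.2% of spots per array were well above background, 53 to 301 spots were flagged as outliers, and none was saturated. All normal arrays lay on a slide that held no other group, so slide and group cannot be told apart. The Xist and Y-linked genes went against the labelled sex on 11 of 22 arrays, the 3 normal arrays among them. Upk2-Cre replicates 1 and 2 share an animal code in their labels, and so do Trp53 het replicates 1 and 2. On Upk2-Cre replicate 1 Xist was well above background and 0 Y-linked genes were, whereas on replicate 2 Xist was not and 4 were. On Trp53 het replicates 1 and 2 Xist was not and Y-linked genes were. The r between arrays was 0.949 for the Upk2-Cre pair and 0.920 for the Trp53 het pair. Its median over all BBN pairs was 0.938. Whether either pair came from 1 animal is not known. The normal tissue is labelled as urothelium, yet the protocol names whole bladders: the urothelial genes Upk1a, Upk1b, Upk2 and Upk3a were all lower with BBN, the basal keratins Krt5 (1.87 on the log2 scale) and Krt14 (7.97) higher, the 4 smooth muscle markers all higher and the 4 fibroblast markers all lower. Nothing in the labels says whether arrays of a group other than those of shared code came from separate cages or litters, so p-values measure the spread between these arrays.

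Promoters are shown for B2m, for the classical class I heavy chain H2-D1, for the transporter gene Tap1 and for the class II chains H2-Aa and H2-Eb1, because the levels of these genes are set against those of Nlrc5 and Ciita. RefSeq promoters of build GRCm38.p6 matched 26 of the 39 members tested. Each sequence holds the 250 bases before a transcript start listed there, 5′ to 3′ on the gene's strand. In 21 of the 26 genes, the 5 printed among them, that window abuts the annotated start of the gene, and in H2-K1, Erap1, H2-DMa, H2-Q7 and H2-T-ps it does not. B2m lies on the plus strand at chr2:122147437-122147686. H2-D1 lies on the plus strand at chr17:35262844-35263093. Tap1 lies on the plus strand at chr17:34187306-34187555. H2-Aa lies on the minus strand at chr17:34287824-34288073. H2-Eb1 lies on the plus strand at chr17:34305617-34305866. Capitals mark every match, on either strand, to GAAANNGAA (a form of the interferon response element), GGGNNTNCC (a kappa B form), TGACG (the core of the X2 box and of the cyclic AMP response element) and CCAAT (the Y box, which reads ATTGG on the other strand).
B2m: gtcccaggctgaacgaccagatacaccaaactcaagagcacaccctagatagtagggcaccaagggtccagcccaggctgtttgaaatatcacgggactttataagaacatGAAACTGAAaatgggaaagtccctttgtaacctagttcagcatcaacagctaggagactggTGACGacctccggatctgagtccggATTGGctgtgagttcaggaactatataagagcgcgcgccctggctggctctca
H2-D1: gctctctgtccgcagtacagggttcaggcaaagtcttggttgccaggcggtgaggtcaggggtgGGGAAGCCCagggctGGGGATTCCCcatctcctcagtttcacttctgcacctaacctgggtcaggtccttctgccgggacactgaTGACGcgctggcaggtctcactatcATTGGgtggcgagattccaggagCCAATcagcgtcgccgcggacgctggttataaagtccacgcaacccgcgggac
Tap1: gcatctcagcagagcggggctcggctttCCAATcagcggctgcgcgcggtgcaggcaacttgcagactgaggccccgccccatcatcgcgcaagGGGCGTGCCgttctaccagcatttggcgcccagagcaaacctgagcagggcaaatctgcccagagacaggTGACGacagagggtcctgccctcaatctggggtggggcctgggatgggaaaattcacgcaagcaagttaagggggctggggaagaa
H2-Aa: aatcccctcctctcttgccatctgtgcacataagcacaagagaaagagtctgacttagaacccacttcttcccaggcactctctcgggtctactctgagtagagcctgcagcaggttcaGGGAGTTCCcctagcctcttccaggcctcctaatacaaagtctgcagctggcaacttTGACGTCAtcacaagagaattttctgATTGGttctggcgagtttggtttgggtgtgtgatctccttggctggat
H2-Eb1: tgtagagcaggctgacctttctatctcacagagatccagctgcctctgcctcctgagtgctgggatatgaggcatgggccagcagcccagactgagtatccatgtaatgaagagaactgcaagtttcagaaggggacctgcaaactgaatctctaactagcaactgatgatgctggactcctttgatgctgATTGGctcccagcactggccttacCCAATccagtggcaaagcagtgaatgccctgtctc

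The pair of X2-like core and reversed CCAAT stood close to the start in 3 of these 5 promoters. TGACG was followed by ATTGG after 20 bases in B2m, 20 bases in H2-D1 and 21 bases in H2-Aa. With a gap of 18 to 22 bases on either strand, that pair was in 6 of the 26 member windows (B2m, H2-K1, H2-D1, H2-M3, H2-Q7 and H2-Aa) and in 0.247% of all 32851 windows, which belong to 27025 genes. This pattern and the letters of all motifs were chosen after these promoters had been seen. GAAANNGAA was in 7.13% of all windows and in 4 of the 26 (B2m, H2-T22, H2-T23 and Erap1). GGGNNTNCC was in 14% of all windows and in 12 of the 26, TGACG in 17.8% and in 10, and CCAAT in 33.8% and in 20. In H2-D1 matches to GGGNNTNCC overlap each other, and in H2-Aa the TGACG matches of both strands overlap. The Tap1 window shares 225 bases with that of Psmb9 (chr17:34187331-34187580, minus strand), since these genes start head to head. A match to these letters is a description and no evidence of binding.

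In BBN bladders against normal bladders, the peptide loading gene Tapbp, the immunoproteasome subunit Psmb10, the lipid-presenting Cd1d1 and the non-classical class I genes H2-T3 and H2-Bl were higher, and H2-Q1 was lower. The H2-Bl call rests on normal arrays where its probe was not well above background. The other 33 members did not pass the test, the class II genes among them. Levels are log2 of the processed spot signal minus the 75th percentile of the array, and a gene was called at an adjusted p of 0.05 or less (limma moderated test, Benjamini-Hochberg over 17405 genes). Of all genes tested, 42.7% were called in this comparison, 23.7% higher and 19% lower. Read against that share, 6 called of 39 members is a smaller share. The median log2 difference was 0.42 over the 39 members and 0.13 over all genes. That order depended on the filter: with no filter on low signals the median over all genes was 0.49, against 0.42 over the same 39 members. With the contrast of Xist and Y-linked genes as a covariate the medians were 0.16 and 0.11. In whole tissue, fewer cells of a type and less RNA per cell cannot be told apart.

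**Figure D1:**
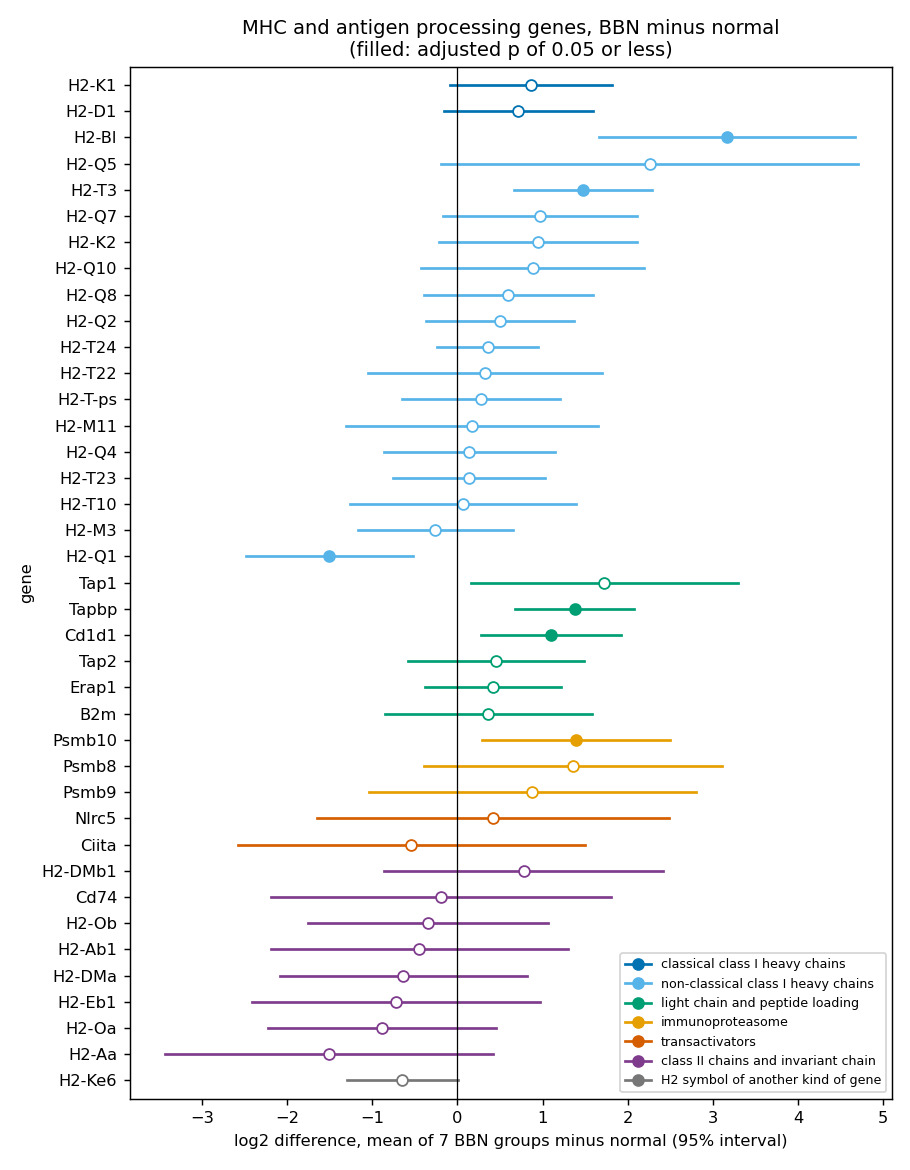
Log2 difference between the mean of the 7 BBN groups and the normal group for each of the 39 genes (x axis, point with 95% interval from the limma fit), ordered by role (y axis and colour). Filled points are the 6 genes called, from H2-Bl (3.16) to H2-Q1 (-1.503), and 7 of the 8 class II genes lie below 0. The H2-Bl value rests on normal arrays where its probe was not well above background.

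Tapbp, which bridges the heavy chain to the Tap transporter, was higher with BBN. Its level was 3.57, 3.81 and 3.62 on the 3 normal arrays, and it ran from 4.46 to 6.499 with a median of 4.89 on the 19 BBN arrays. Every BBN array was above every normal array, as in 13.6% of all genes tested (12% had every BBN array below). The log2 difference was 1.38 ± 0.33 (SE), which is 2.60-fold, with an adjusted p of 0.0034 (limma, n = 19 and 3). A dimmer second probe of Tapbp gave 0.36 and barely followed the first over the BBN arrays (r = 0.07), so the size rests on the brighter probe. Tapbp was called under all 36 alternative settings, with log2 differences from 0.87 to 1.53.

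Psmb10, a catalytic subunit of the immunoproteasome, was at 3.47, 3.99 and 3.41 on the normal arrays and between 4.002 and 7.15 on the BBN arrays, with a median of 4.73. Here too the groups did not overlap, as in 13.6% of all genes, though the lowest BBN array lay only just above the highest normal one. The log2 difference was 1.40 ± 0.52 (SE) with an adjusted p of 0.0400 (limma). The call was close to the threshold: it held under 21 of 36 alternatives, with an adjusted p of up to 0.16, and was lost without any of the 3 normal arrays in turn (adjusted p 0.132, 0.0721 and 0.142). It was also lost without Krt5-Cre replicate 2, Trp53 het replicate 3, Upk2 R270H replicate 2, Upk2-Cre replicate 1 or Upk2 R172H replicate 1, with an adjusted p between 0.0509 and 0.0563. It was further lost under normexp, quantile scaling, no filter, the slide, scanner and replicate blocks and the Xist covariate. For Psmb8 the log2 difference was 1.36 (adjusted p 0.192 in limma) and for Psmb9 0.88 (adjusted p 0.447), and neither passed the test.

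Both other subunits spread widely over the BBN arrays. Psmb8 ran from 0.72 to 4.61 against 1.01 to 1.41 on normal arrays, and Psmb9 from -0.02 to 4.47 against 1.05 to 1.82. Psmb8 was above every normal array on 15 of 19 BBN arrays and below every normal array on 3.

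Cd1d1, which shows lipids to natural killer T cells, was at -1.79, -1.23 and -1.39 on the normal arrays and between -1.51 and 1.48 on the BBN arrays, with a median of -0.31. All but 1 of the 19 BBN arrays were above the highest normal array. The log2 difference was 1.101 ± 0.39 (SE) with an adjusted p of 0.0316 (limma), called under 28 of 36 alternatives and lost without any 1 normal array (adjusted p 0.147, 0.0646 and 0.087). It was also lost with the slide (0.118) or the scanner (0.0651) as a block, with either sex covariate (0.0505 and 0.0913) and within 1 scanner model (0.169).

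Among the non-classical class I genes, H2-T3, which encodes the thymus leukaemia antigen, was at -3.55, -3.32 and -4.05 on the normal arrays and between -2.996 and -0.16 on the BBN arrays, with a median of -2.30. No BBN array reached down to the normal ones, which held for 13.6% of all genes in this direction. The log2 difference was 1.48 ± 0.38 (SE) with an adjusted p of 0.0058 (limma), and 1.27 without normal replicate 3, where the adjusted p was 0.0509. The adjusted p was 0.0564 when scanner model entered as a block and 0.081 with the mean over probes. A second, dimmer probe of H2-T3, well above background on 1 array only, gave 0.74.

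H2-Bl, annotated as a transcribed pseudogene of the class I family, was not well above background on any normal array and was so on 8 of the 19 BBN arrays. Taking the lowest signal well above background on each normal array as the limit, the BBN mean was 2.15-fold higher. That mean holds measured values of BBN arrays where the probe was not well above background, so the figure is no firm lower bound. H2-Bl passed the signal filter only through BBN arrays. The fit (adjusted p 0.0021 in limma) set these against normal readings near background, so the call is no support for a difference. H2-Bl was called under the 34 alternatives run for it, but the deposited table and the filter for signal on every array left it out. Its measured levels were -7.47, -7.19 and -7.70 on normal arrays and between -6.27 and -1.46 on BBN arrays.

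H2-Q1, another class I gene, was at -3.20, -3.90 and -3.83 on the normal arrays and between -6.43 and -3.24 on the BBN arrays, with a median of -5.17. It lay below every normal array on 17 of 19 BBN arrays, and its probe was well above background on all 3 normal arrays but on only 5 BBN arrays. The lowest signal well above background was between -5.64 and -5.13 on the normal arrays. On BBN arrays of the other scanner model it was between -4.48 and -2.69. A level like that of the normal arrays could miss the mark on some of those, so the 2 counts are not alike. The log2 difference was -1.503 ± 0.46 (SE) with an adjusted p of 0.0159 (limma). With normexp background correction the difference was -0.02, and without normal replicate 1 the adjusted p was 0.097. It was 0.0779 with the slide as a random block.

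The classical heavy chains and B2m, which present peptide at the cell surface, did not pass the test. H2-K1 was at 5.96, 6.46 and 6.16 on the normal arrays and between 5.96 and 8.43 on the BBN arrays, a log2 difference of 0.86 (95% interval -0.09 to 1.81, adjusted p 0.13 in limma). H2-D1 ran from 4.92 to 6.80 against 4.90 to 5.18 on normal arrays, a difference of 0.72 (-0.16 to 1.59). B2m was at 5.18, 5.51 and 5.06 on the normal arrays and between 4.32 and 7.37 on the BBN arrays, a difference of 0.36 (-0.85 to 1.58). H2-K1 was above every normal array on 16 of the 19 BBN arrays and H2-D1 on 14, while B2m was above on 9 and below on 5. The sign for B2m turned under quantile scaling (-0.00456), in the authors' deposited values (-0.05) and with the contrast of Xist and Y-linked genes as a covariate (-0.07). Quantile scaling moved the median of all genes from 0.13 to -0.01, and the signs of H2-Q4, H2-T23, H2-T-ps and H2-M11, all near 0, turned with it.

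Tap1, the first chain of the peptide transporter, was at 0.45, 0.79 and 0.39 on the normal arrays and between 0.77 and 4.17 on the BBN arrays. It was above the highest normal array on 18 of 19 BBN arrays, yet its adjusted p was 0.0695 for a log2 difference of 1.73 (95% interval 0.16 to 3.29, limma). It passed without Upk2-Cre replicate 2 (adjusted p 0.0476), Krt5 R270H replicate 3 (0.0441) or Upk2 R270H replicate 1 (0.0484), each a low array. The second Tap1 probe gave 0.83. Tap2, the partner chain, differed by 0.45 (-0.58 to 1.49). Its second probe, well above background on 2 arrays only, gave 1.48, and with the mean over probes Tap2 passed (0.965, adjusted p 0.0479 in limma). Erap1, which trims peptides in the endoplasmic reticulum, differed by 0.42 (-0.38 to 1.22).

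The class II genes lay mostly on the other side of 0. Of 8 tested, 0 were called by limma and 0 had an unadjusted p under 0.05. H2-DMb1, a chain of the peptide exchange factor H2-M, was the exception in sign at 0.78, and the median over the 8 was -0.54. H2-Aa, the class II alpha chain, was at 1.84, 2.60 and 2.11 on the normal arrays and between -2.71 and 2.79 on the BBN arrays. It lay below every normal array on 15 of 19 BBN arrays and above on 3, a log2 difference of -1.51 (95% interval -3.44 to 0.42, adjusted p 0.188 in limma). Without Upk2 R270H replicate 2, a high array, the difference was -1.90 and the adjusted p 0.0464. H2-Ab1, its beta chain partner, differed by -0.45, H2-Eb1 by -0.72, H2-DMa by -0.64 and the invariant chain Cd74, which escorts class II to the endosome, by -0.19. Under normexp H2-Ob was at 0.21 in place of -0.34, and the signs of H2-Aa, H2-Ab1, H2-Eb1, H2-DMa, H2-Oa and Cd74 were the same under normexp, under quantile scaling and in the authors' normalised values.

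The transactivators themselves did not pass the test. Nlrc5 was at -0.08, 0.26 and 0.35 on the normal arrays and between -1.75 and 2.77 on the BBN arrays, a log2 difference of 0.42 (95% interval -1.64 to 2.48). Ciita was at -0.45, 0.09 and -0.21 on the normal arrays and between -3.79 and 1.53 on the BBN arrays, a difference of -0.54 (-2.58 to 1.497). In both cases the normal arrays sat inside the range of the BBN arrays, with 8 of 19 below them for Nlrc5 and 10 of 19 for Ciita. Each has a dimmer second probe, well above background on 11 arrays. The Nlrc5 one gave 1.35 and had r = 0.62 with the first over BBN arrays, and the Ciita one gave -0.19 with r = 0.57. All values of Nlrc5 and Ciita given here, correlations included, are of the brighter probe.

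The scanner model bore on this comparison, because the normal arrays and 8 of the BBN arrays were read on one model and 11 BBN arrays on another. Within the model shared with the normal arrays, 5 of 39 members were higher and 3 lower, against 4461 and 3863 of 17405 genes. Tapbp differed there by 1.19, H2-T3 by 1.48, Psmb10 by 1.31, H2-Bl by 3.003 in the fit and Tap1 by 1.63 (adjusted p 0.0427). H2-Oa, a chain of the H2-O modulator of class II loading, differed there by -1.76 (adjusted p 0.0157), its partner H2-Ob by -1.36 (adjusted p 0.0017) and H2-Ke6, an enzyme gene that lies in the complex, by -0.78 (adjusted p 0.047). Over all arrays the same genes differed by -0.88, -0.34 and -0.65 and were not called. The model shared with the normal arrays read no Krt5 R270H or Upk2 R270H array, so the groups compared differ between these fits too. Cd1d1 was at 0.97 within that model (adjusted p 0.169) and H2-Q1 at -1.36 (adjusted p 0.109). When scanner model entered as a block over all arrays, 2 members were higher and 4 lower, against 2557 and 2638 of 17405 genes.

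**Figure D2:**
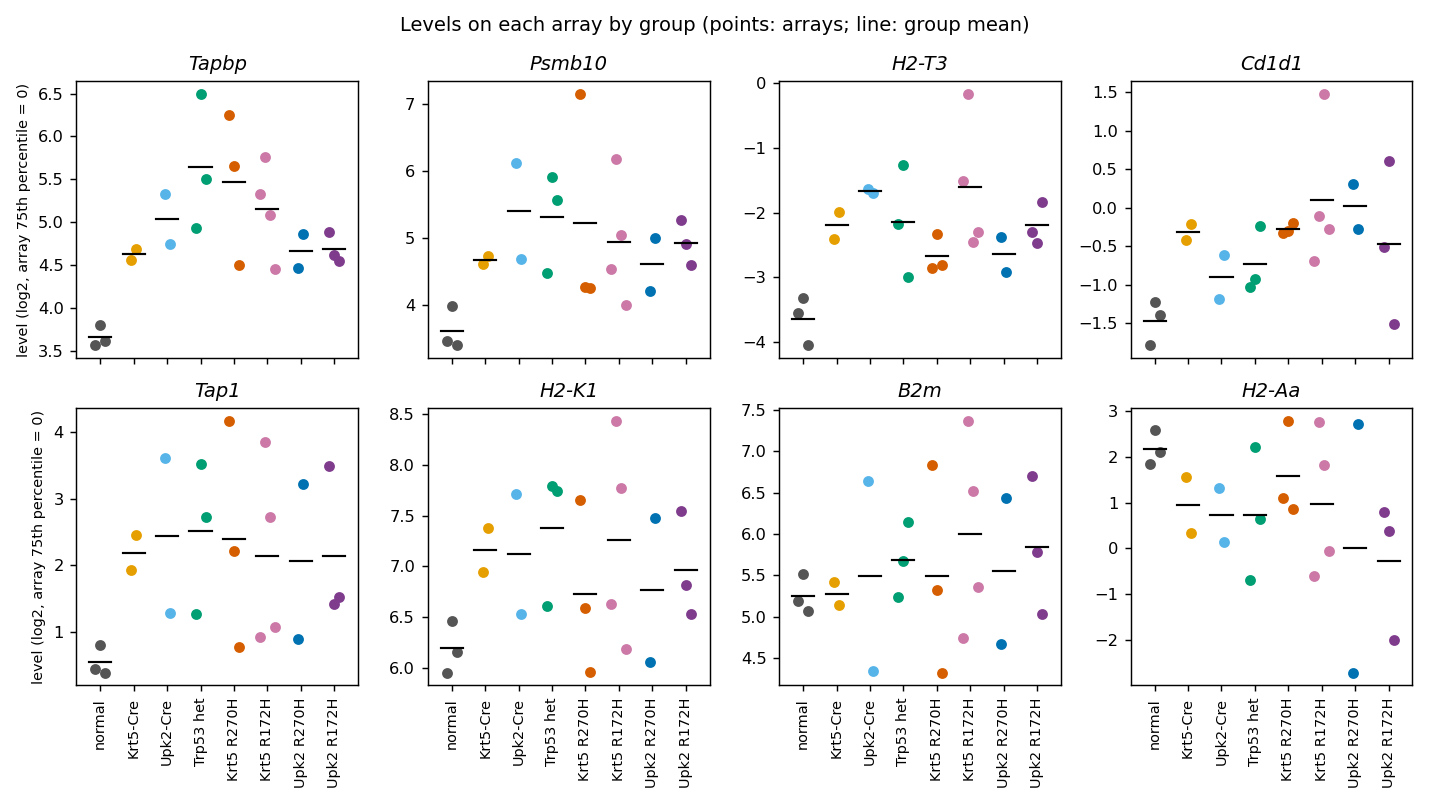
Levels (y axes, log2 relative to the 75th percentile of the array) of Tapbp, Psmb10, H2-T3, Cd1d1, Tap1, H2-K1, B2m and H2-Aa on every array, by group (x axis), with points for arrays and a line for the group mean. All BBN points of Tapbp, Psmb10 and H2-T3 lie above the 3 normal points, as for 13.6% of all genes. The SD inside BBN groups was 1.38 for Tap1, 1.06 for B2m and 1.70 for H2-Aa.

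The other genes of these pathways were counted by list in the same comparison. Of all genes tested, 23.7% were higher and 19% lower there, 42.7% in all, and no list was tested against those shares. Of 7 tested genes of class I loading and of the proteasome activator, 4 were higher and 0 lower: the chaperone Calr (1.48), the oxidoreductase Pdia3 (0.70) and the activator subunits Psme1 (1.09) and Psme3 (0.64). Of 4 constitutive proteasome subunits, Psmb5 alone was called (1.06). Of 8 genes of endosomal processing, 4 were higher (the proteases Ctsb at 0.87, Lgmn at 1.02 and Ctss at 1.06, and the reductase Ifi30 at 1.05) and the neonatal Fc receptor Fcgrt was lower (-2.26). Of 15 genes of transcription and interferon gamma signalling, 2 were higher and 2 lower: the X box factor subunit Rfxap was among the higher ones (0.74), and its partner subunit Rfxank (-0.97) and the kinase gene Jak1 (-0.37) were lower. The fit for Ifng gave 2.46 with an adjusted p of 0.132 (limma). Its probe was well above background on 0 of 3 normal and 7 of 19 BBN arrays, so the size of that difference is not known.

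Some markers of immune cells moved in the same comparison. Over 5 lists, 10 of 28 tested markers were higher (35.7%) and 1 lower (3.57%), in all 39.3%, where 23.7% of all genes were higher, 19% lower and 42.7% called. Of the 6 T and NK cell markers tested, 3 were higher (Cd4 at 1.15, Cd3e at 2.23 and Cd8b1 at 2.32) and 0 lower, and their summed level ran from 1.01 to 1.52 on normal arrays and from 2.10 to 3.95 on BBN arrays. A summed level is log2 of the sum of linear signals of the tested genes of a list, so the brightest genes weigh most. Of 4 markers of all leukocytes, Laptm5 (2.52) and Coro1a (0.94) were higher, with summed levels of 1.45 to 2.00 against 1.72 to 3.90. Of 6 dendritic cell markers, Itgax (1.56) and Zbtb46 (1.23) were higher and Clec9a (-1.74) lower, with summed levels of -0.21 to 0.52 against -0.38 to 2.95. Of 7 macrophage markers, Cd68 (1.31) and C1qc (1.07) were higher, and of 5 B cell markers Pax5 (1.47). Xcr1 and Ncr1 were not well above background on any array of any group. The part of these cells in the differences of the members was not tested.

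Set against the normal arrays one BBN group at a time, few members were called, and all 7 comparisons share the normal arrays. In Krt5-Cre 0 members were called by limma, 2 had an unadjusted p under 0.05, and 17.5% of all genes were called (10.6% higher, 6.95% lower). In Upk2-Cre, H2-Bl, H2-T3 and Tapbp were higher and H2-Q1 lower, with 15.2% of all genes higher and 12.8% lower (28.1% in all). In Trp53 het, H2-Bl, H2-T3, H2-T24 and Tapbp were higher, with 17.5% of all genes higher and 13.5% lower (31% in all). The H2-Bl probe was well above background on 1 Upk2-Cre array, 2 Trp53 het arrays and no normal array. The H2-Q1 probe was so on no Upk2-Cre array, so that difference is a bound of at least 1.64-fold lower.

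The mutant groups followed. In Krt5 R270H, H2-Bl and Tapbp were higher and H2-Q1 lower (17.1% and 13% of all genes, 30.1% in all). In Krt5 R172H, H2-Bl, H2-T3, Tapbp and Cd1d1 were higher (17.9% of all genes higher, 14.6% lower, 32.5% in all). In Upk2 R270H only H2-Q1 was called, lower (10.2% and 9.08%, 19.3% in all). In Upk2 R172H, H2-Bl and H2-T3 were higher and H2-Oa lower (11.4% and 13%, 24.4% in all). The H2-Q1 probe was well above background on no Krt5 R270H or Upk2 R270H array. Those differences are bounds, of at least 1.09-fold and 1.34-fold lower. The H2-Bl probe was well above background on 1 Krt5 R270H array, 1 Krt5 R172H array, 3 Upk2 R172H arrays and no normal array.

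The mean of Tapbp was above that of the normal arrays in each BBN group. For the Cre controls it was 4.63 ± 0.09 (SD, n = 2, Krt5) and 5.04 ± 0.41 (n = 2, Upk2), and for Trp53 het 5.65 ± 0.79 (n = 3). For the mutants it was 5.47 ± 0.89 (n = 3, Krt5 R270H), 5.16 ± 0.54 (n = 4, Krt5 R172H), 4.67 ± 0.28 (n = 2, Upk2 R270H) and 4.69 ± 0.18 (n = 3, Upk2 R172H), against 3.66 ± 0.13 (n = 3) in normal. Group means of Tap1 lay between 2.06 in Upk2 R270H and 2.51 in Trp53 het, against 0.54 in normal, while the SD inside a BBN group was as high as 1.71. For H2-Aa the group means went from -0.27 ± 1.51 in Upk2 R172H to 1.58 ± 1.05 in Krt5 R270H, against 2.19 ± 0.38 in normal.

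Among the 7 BBN groups no member passed a test. The moderated F test of limma over the group means called 0 of 39 members and 0 of 17405 genes, and no member had an unadjusted p under 0.05 in it: the smallest was 0.0566, for H2-T24. The largest adjusted p values were near 1, as for Tap1 (F = 0.06) and Nlrc5 (F = 0.05). The spread was within groups: the SD inside BBN groups had a median of 1.06 over the members and 0.586 over all genes. The SD over the 19 BBN arrays had a median of 0.895 over the members and 0.576 over all genes, and over the normal arrays the medians were 0.233 and 0.210. The normal arrays shared a slide and a scanner model, whereas the BBN arrays lay on several slides and were read on both models. Slide and scanner are thus part of that contrast. Transactivators (1.52), immunoproteasome subunits (1.30) and class II genes (1.27) had the highest medians over BBN arrays, and classical heavy chains 0.661.

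**Figure D3:**
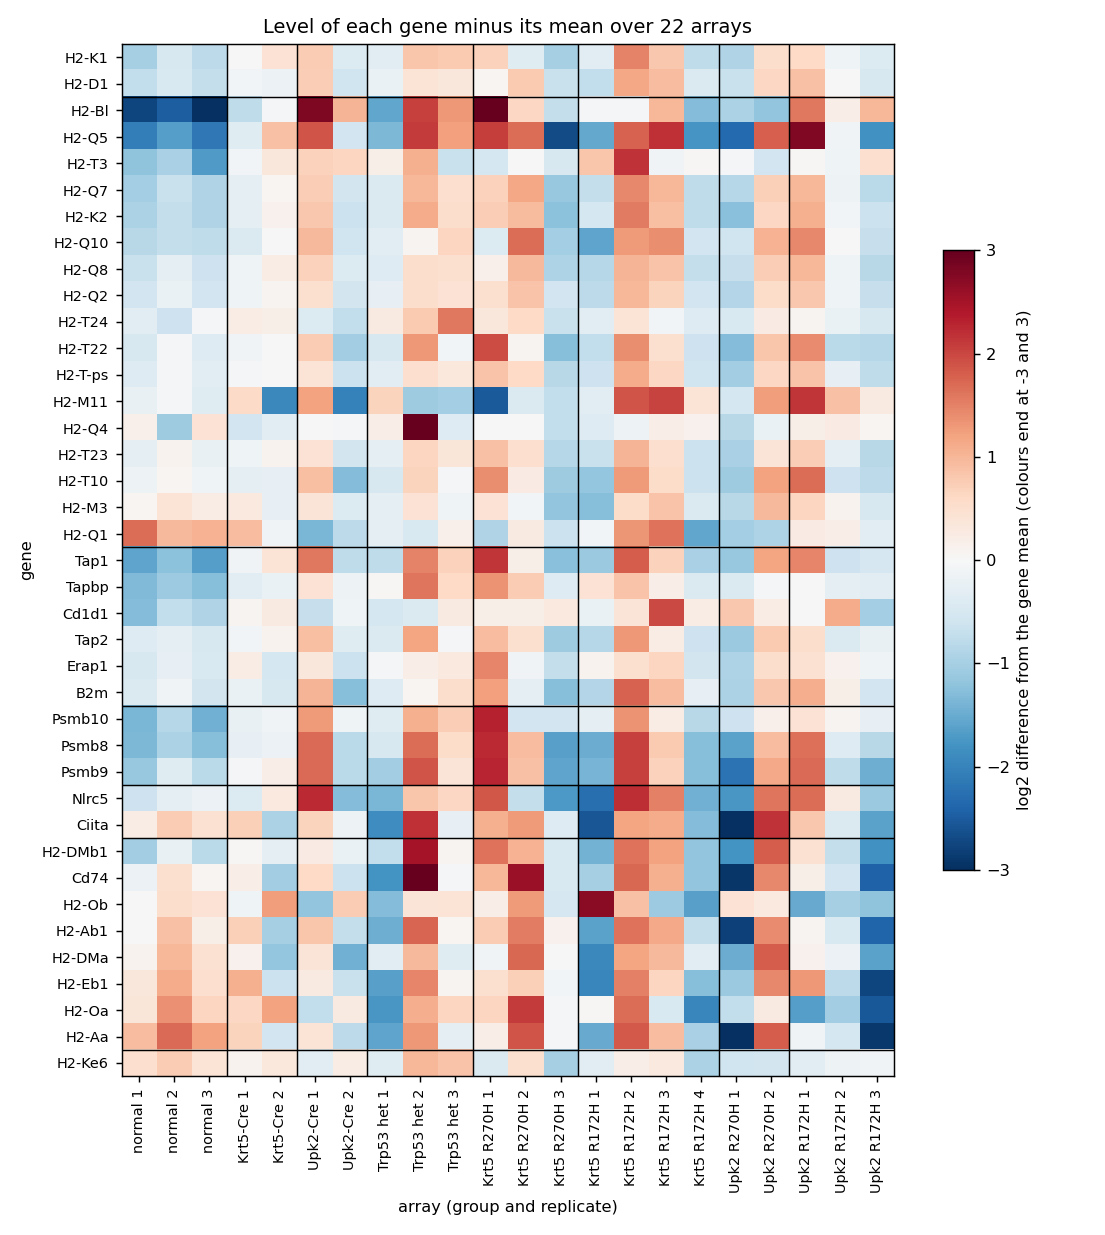
Level of each of the 39 genes (rows, by role) on each of the 22 arrays (columns, by group and replicate) minus the gene's mean over all arrays, in log2 units with colours that end at -3 and 3. Arrays that are high or low for most class I genes, such as Krt5 R172H replicate 2 (high) and Upk2 R270H replicate 1 (low), occur inside the same groups as their opposites.

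The mutation comparisons asked whether activation of mutant Trp53 in basal or in Upk2-expressing cells went with other levels of these genes. In Krt5 mutants against Krt5-Cre, 0 of 39 members were called by limma and 0 had an unadjusted p under 0.05, where 0.0115% of all genes were called. Tapbp differed by 0.69 (95% interval -0.21 to 1.59) and H2-Ke6 by -0.46 (-1.31 to 0.38). The H2-Bl probe was not well above background on either Krt5-Cre array, so no difference is given for it. In Upk2 mutants against Upk2-Cre, 0 members were called by limma and 0 had an unadjusted p under 0.05, with 0.00575% of all genes called. H2-Bl differed by -1.98 (-4.00 to 0.04), with its probe well above background on 1 of 2 Upk2-Cre, 0 of 2 Upk2 R270H and 3 of 3 Upk2 R172H arrays. H2-T3 differed by -0.76 (-1.85 to 0.34) and Cd1d1 by 0.67 (-0.44 to 1.78).

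The difference between these effects, tested as an interaction in limma, was called for 0 members and for 0% of all genes, and 1 member (H2-Bl, 2.86, 95% interval 0.06 to 5.66) had an unadjusted p under 0.05. That H2-Bl value rests on arrays where the probe was not well above background, both Krt5-Cre arrays among them. Tapbp followed at 1.05 (-0.25 to 2.35) and H2-Q1 at -1.07 (-2.89 to 0.76). Krt5 mutants set directly against Upk2 mutants gave 0 called members in limma, 1 with an unadjusted p under 0.05, and 0.00575% of all genes. All 8 class II genes were above 0 there, with a median of 1.01 over the 8 and 0.06 over all genes. Of all 17405 genes, 10031 were above 0. Most markers of immune cells lay on that side: 6 of 6 of dendritic cells (median 0.58), 6 of 6 of T and NK cells (1.13) and 4 of 4 of all leukocytes (0.47). For macrophages it was 6 of 7 (0.09) and for B cells 4 of 5 (0.86). In these 5 lists 0 markers were called by limma, and 1 dendritic and 1 B cell marker had an unadjusted p under 0.05. The part of immune cells in the class II values was not tested. Without Upk2 R270H replicate 1, the median over the 39 members was -0.15 in place of 0.28. H2-Oa differed by 1.36 (0.08 to 2.63), and by 0.93 once scanner model entered as a block. Tapbp differed by 0.64 (-0.03 to 1.30) and H2-Aa by 1.41 (-0.42 to 3.25).

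Trp53 het bladders against the Cre controls gave 0 called members in limma, 1 with an unadjusted p under 0.05, and 0% of all genes. H2-T24, a non-classical class I gene, differed by 1.06 (0.33 to 1.79, adjusted p 0.763), Tapbp by 0.81 (-0.04 to 1.67) and H2-Q4 by 1.198 (-0.03 to 2.42). The H2-Q4 value rests on Trp53 het replicate 2, where the level was 7.72, while the other 21 arrays lay between 3.56 and 5.06.

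R270H against R172H gave 0 called members in limma, 2 with an unadjusted p under 0.05, and 0% of all genes. H2-M11 differed by -1.48 and H2-Oa by 1.29, but in the fit with scanner model as a block they were at -0.23 and 0.01. All Krt5 R270H and Upk2 R270H arrays were read on 1 scanner model and all Upk2 R172H arrays on the other. H2-T3 was at -0.75, and at -1.24 with that block (p adjusted in limma 0.187). The 4 activated mutant groups against the other BBN groups gave 0 called members in limma, 1 with an unadjusted p under 0.05 (H2-Ke6, -0.53, interval -1.04 to -0.02), and 0% of all genes. Cd1d1 differed by 0.49 (-0.15 to 1.13) and H2-M11 by 0.83 (-0.32 to 1.99).

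**Figure D4:**
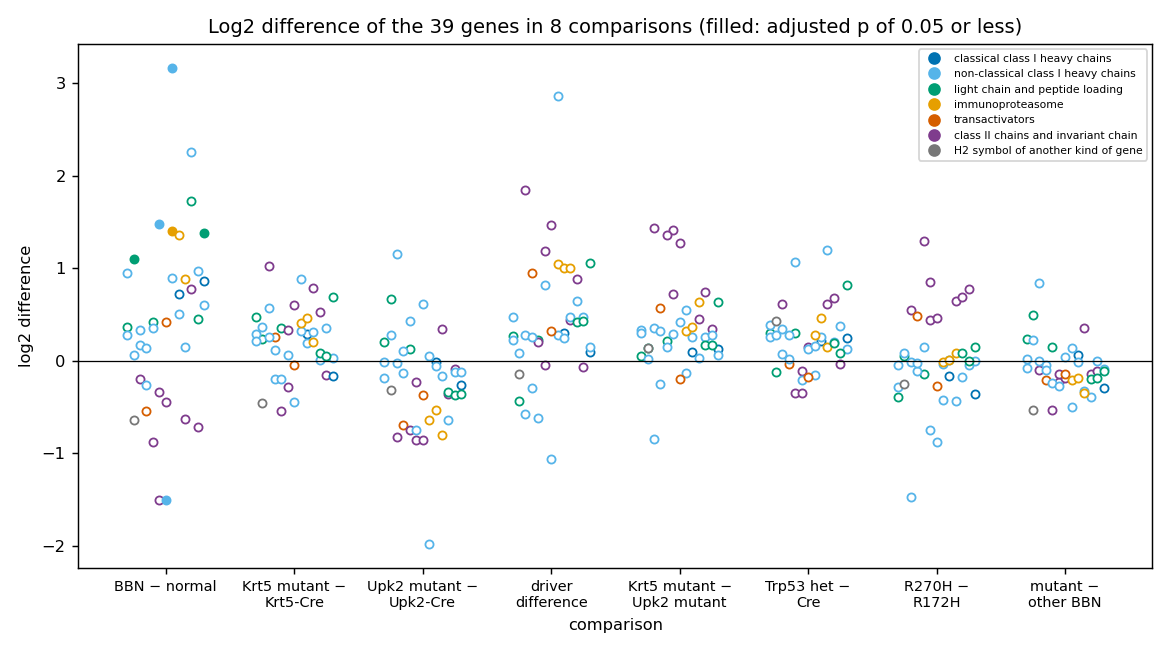
Log2 difference (y axis) of each of the 39 genes in each of the 8 comparisons (x axis), coloured by role, with filled points for an adjusted p of 0.05 or less in limma. Filled points occur only in BBN minus normal, where 6 genes passed.

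Levels varied from array to array inside the groups, arrays of shared animal code among them. In 10 chosen pairs 5 class II genes varied with Ciita and 5 class I or antigen processing genes with Nlrc5. Over the 19 BBN arrays, Ciita correlated with H2-Ab1 at r = 0.95 (Spearman rho 0.94), with Cd74 at 0.92 (0.96), with H2-Aa at 0.92 (0.94), with H2-Eb1 at 0.89 (0.92) and with H2-DMa at 0.85 (0.88). Nlrc5 correlated with Tap1 at r = 0.94 (rho 0.96), with B2m at 0.93 (0.90), with H2-K1 at 0.91 (0.85), with Psmb9 at 0.90 (0.92) and with H2-D1 at 0.85 (0.86). Permutation tests with 100000 resamples gave a p of 1e-05, the smallest they can give, for 8 of the 10 Pearson values, 2e-05 for Nlrc5 with H2-D1 and 4e-05 for Ciita with H2-DMa. Adjusted over the 10 pairs by Benjamini-Hochberg, the p-values were 4e-05 or lower.

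At the low end stood Upk2 R270H replicate 1, with Ciita at -3.79, H2-Ab1 at 1.80, Cd74 at 0.40 and H2-Aa at -2.71. At the high end stood Trp53 het replicate 2, with Ciita at 1.53, H2-Ab1 at 6.33 and Cd74 at 6.31. These arrays come from different groups, and Trp53 het replicate 1, which shares its animal code with replicate 2, had Ciita at -2.53 and Cd74 at 1.52. For Nlrc5 the ends were Krt5 R172H replicate 1 (Nlrc5 -1.75, Tap1 0.92, B2m 4.74) and Upk2-Cre replicate 1 (Nlrc5 2.77, Tap1 3.61, B2m 6.64), and Upk2-Cre replicate 2, of the same animal code as replicate 1, had Nlrc5 at -0.77 and Tap1 at 1.28.

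All 10 values stayed high in each subset listed here. Without the 2 arrays farthest from the median of the transactivator, r was between 0.80 and 0.93 over 17 arrays. It was between 0.79 and 0.97 over the 11 arrays of one scanner model and between 0.80 and 0.97 over the 8 of the other. With group means removed it was between 0.87 and 0.98, and with arrays of shared animal code averaged between 0.82 and 0.94.

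**Figure D5:**
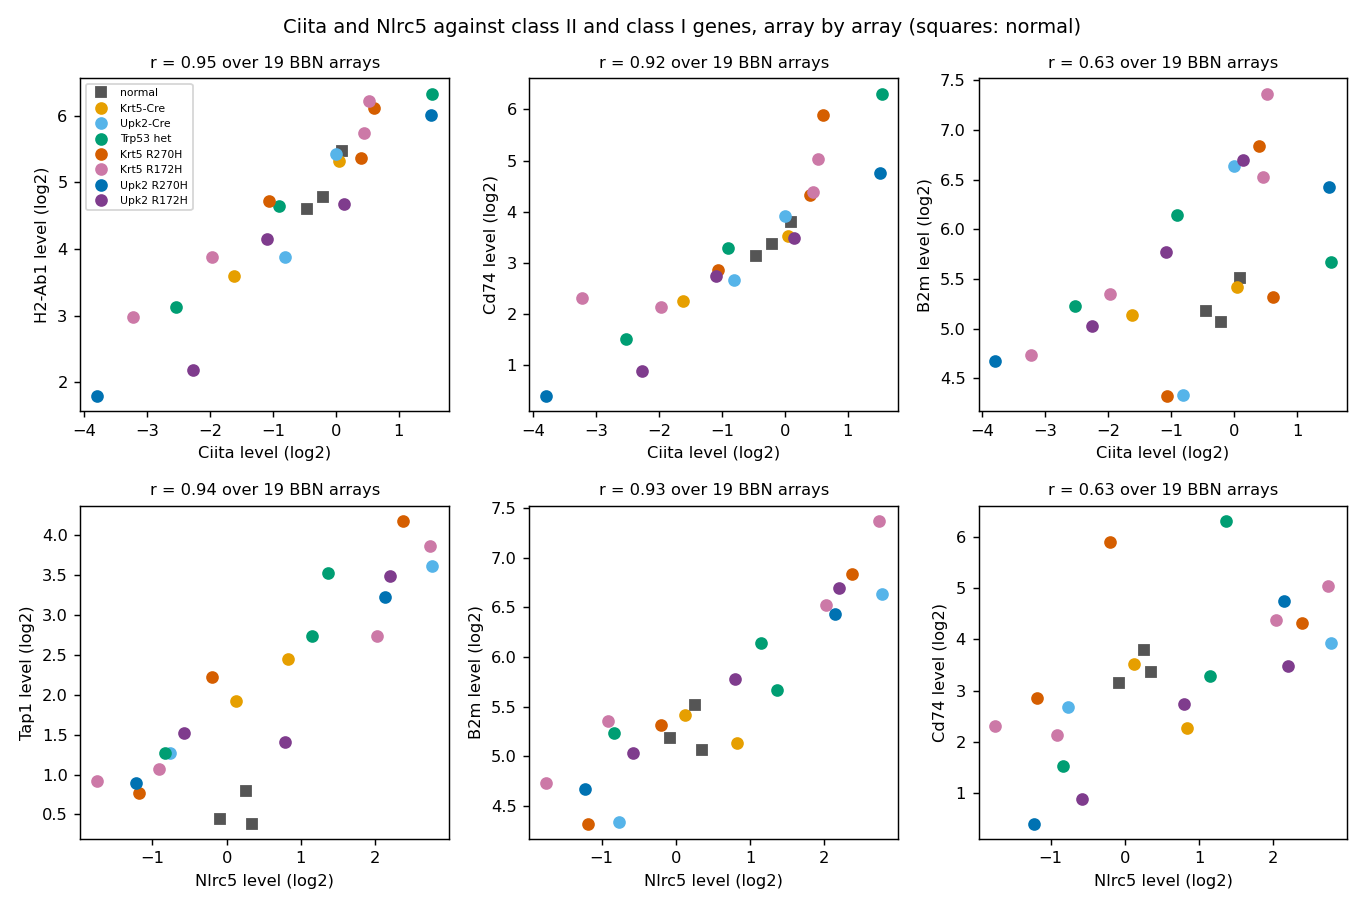
Level of Ciita (upper row, x axes) against H2-Ab1, Cd74 and B2m and of Nlrc5 (lower row, x axes) against Tap1, B2m and Cd74 (y axes, all log2), 1 point per array, with squares for normal. H2-Ab1 and Cd74 follow Ciita closely (r = 0.95 and 0.92) and Tap1 and B2m follow Nlrc5 (0.94 and 0.93), with more scatter for Ciita with B2m (0.63) and Nlrc5 with Cd74 (0.63). The 3 normal arrays lie between 0.39 and 0.79 for Tap1.

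Pairs across the classes were correlated too, over a range that overlaps the first. Ciita with the 5 class I partners and Nlrc5 with the 5 class II partners gave r between 0.62 and 0.85 and rho between 0.63 and 0.83, with Ciita and Psmb9 highest, where the first 10 pairs ran from 0.85 to 0.95. The permutation p-values adjusted over these 10 crossed pairs were 0.00535 or lower. Without the 2 farthest arrays their r went down to 0.48, with an adjusted permutation p of up to 0.0495. Within each scanner model 6 of the 10 passed, with an adjusted p of up to 0.0535 over 11 arrays (permutation test) and 0.0565 over 8 (exact permutation test). These pairs were added after the first 10 were known, and the difference between own and crossed pairs was not tested.

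Members were ranked among the 17404 other genes by r. For Ciita the leading genes were H2-Ab1, H2-DMb1 (r = 0.93), Cd74 and H2-Aa, with H2-Eb1 at rank 6, Psmb9 at rank 7 and H2-DMa at rank 8. Genes with r of 0.8 or more made up 0.195% of all genes and 14 of the 38 other members. Tlr12, a Toll-like receptor, and Cd72, a B cell surface protein, were no members and ranked among the first 10. For Nlrc5 the leading gene was Tap1, with B2m at rank 3, Psmb8 (r = 0.91) at rank 8, H2-K1 at rank 9, H2-T10 at rank 10, Psmb9 at rank 14 and H2-D1 at rank 32. Genes with r of 0.8 or more made up 0.282% of all genes and 18 of the 38 other members. The genes between them in the first 12 were interferon-inducible GTPases, namely Ifi47 (r = 0.94), Iigp1 (0.93), Tgtp2 (0.92), Igtp (0.91), Irgm1 (0.91) and Irgm2 (0.91), along with Gm4951 (0.92). Of these, Ifi47, Iigp1, Tgtp2, Gm4951 and Igtp ranked ahead of H2-K1. These ranks are across genes, which are not independent replicates, and probes of class I genes of near-identical sequence can bind each other's transcripts, so the count of class I members may hold fewer separate signals.

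Cd1d1, H2-T3 and H2-Ob stood apart from both transactivators, and some other members followed them less closely than the leading genes did. The log2 level of Cd1d1 had r of 0.10 with Ciita and 0.17 with Nlrc5, H2-T3 had 0.03 and 0.11, and H2-Ob had -0.05 and -0.18. With Nlrc5, r was 0.25 for H2-Q4 and 0.34 for H2-M11, both class I genes, and with Ciita it was 0.50 for the class II gene H2-Oa. With the other transactivator it was 0.44 for H2-Q4 and 0.19 for H2-M11 (Ciita), and 0.26 for H2-Oa (Nlrc5). Tapbp had 0.54 with Ciita (rank 401 of 17404) and 0.49 with Nlrc5 (rank 365). Of the 6 members called against normal, Psmb10 had the highest r with Nlrc5 (0.81).

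Levels of Ciita also moved with immune cell markers. The summed level of the dendritic cell markers correlated with Ciita at r = 0.69 (rho 0.71, permutation p 0.00088, adjusted 0.0088 over 10 relations) and that of the leukocyte markers at 0.67 (rho 0.66, permutation p 0.00178, adjusted 0.0089). Without the 2 farthest arrays these were 0.61 and 0.70. Within the scanner models they were 0.75 and 0.54 for dendritic cells, and 0.80 and 0.34 for leukocytes, and neither passed over the 8 arrays of the second model (permutation p 0.167 and 0.393). With group means removed, r was 0.82 and 0.71 with an adjusted permutation p of 0.147. Ciita with macrophage (0.42), T and NK cell (0.43) and B cell markers (0.25) did not pass, nor did Nlrc5 with any of the 5 lists, at r between -0.16 and 0.44. Without the 2 farthest arrays, Ciita with T and NK cell markers was at r = 0.61 (rho 0.69, adjusted permutation p 0.0308) and passed. The part of these cells in the Ciita values was not tested.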

How the data were processed

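Spot intensities of 22 Agilent arrays were deposited; per the file headers they were background-subtracted in Agilent Feature Extraction 11.0.1.1, while version 9.1 and limma are named per the submitters' processing notes. The authors' deposited log2 table, whose columns share 1 maximum and rank probes as the matching scanner files do, served as an alternative; how it was scaled is not given in the sources used here. Flagged spots were dropped, log2 intensity minus the 75th percentile of each array was taken, spots of a probe were averaged, and the brightest probe stood for a gene. Of 56605 probes, 32994 had 1 symbol through RefSeq (GRCm38.p6) and 23611 none. Genes well above background on 2 or more of 22 arrays, with no flagged value (18 removed), were tested with limma 3.58.1 in R 4.3.3 on 8 group means, groups of a side weighted alike. The number of arrays limits the precision. Correlations used scipy 1.17.1 with two-sided permutation tests. Fits were tested on simulated data. Some genes of the lists are not reported here.

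The members and gene lists were chosen with earlier results of these data known. Always named were the classical, loading, immunoproteasome, transactivator and main class II genes and Cd1d1, then every called member, the 3 members of smallest p where none was called, and up to 4 genes a list of smallest p. Alternatives were normexp background correction, which used the median spot signal in place of the mean, quantile scaling, the deposited table, filters, probe means, slide, scanner and replicate blocks, sex covariates, averaging of arrays that share an animal code, and leaving out each array.

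Replicate numbers did not pair the samples: the deviations of same-numbered arrays of different groups had a median correlation of 0.03 (-0.48 to 0.56).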

Additional observations from a re-analysis of the deposited data

How the results depend on the processing

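For BBN against normal, 5 of 39 members were called higher and 1 lower, against 4119 and 3313 of 17405 genes. Over the alternatives that tested all 17405 genes, 2557 to 4580 genes were higher and 2254 to 3863 lower. The member counts were 4 higher and 1 lower with normexp, with quantile scaling, with no filter, with the replicate block and with the labelled sex as a covariate. Under normexp the lower gene was H2-Ke6 (-0.81, adjusted p 0.0271 in limma) and not H2-Q1 (-0.02). With the authors' deposited table, and with a filter asking for signal on every array, 4 were higher and 0 lower. With the mean over probes 6 were higher and 2 lower. With the slide as a random block 3 were higher and 0 lower, with the scanner as a block 2 were higher and 4 lower, with the contrast of Xist and Y-linked genes as a covariate 3 were higher and 1 lower, and within 1 scanner model 5 were higher and 3 lower. These last 2 settings were added after seeing the data. Averaging arrays of shared code gave 5 higher and 1 lower. Leaving out each array gave 2 to 6 higher and 0 to 2 lower, with 3, 3 and 2 higher without normal replicates 1, 2 and 3, and 2 lower without Krt5 R270H replicate 2 or Upk2 R270H replicate 2. The causes were not tested. No called member changed sign under any of these settings. The other 7 comparisons and the F test called 0 members under every setting run. The 10 correlations kept their sign and stayed past the threshold throughout, from 0.75 in the deposited table, where Ciita had values on 17 BBN arrays, to 0.98. Fitting the replicate number as a block lost the call of Psmb10 (adjusted p 0.0508) and no other member's call; the numbers do not pair the arrays. Dim probes (H2-Bl, H2-Q1, H2-Oa, H2-Ob, H2-T24) limit what is known of those genes.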
